A study of Mus musculus with 15 samples.

Results

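The BAF complex is a multi-subunit machine that uses the energy of ATP to slide and evict nucleosomes, and each position in it is filled by 1 of several related subunits. In the developing nervous system part of these positions is known to be refilled when dividing progenitors become neurons: Actl6a gives way to Actl6b, and the PHD-finger subunits Phf10 and Dpf2 give way to Dpf1 and Dpf3. Repression of Actl6a by miR-9* and miR-124, and the release of Actl6b from the silencer factor REST (which binds the sequence element called RE1), are textbook parts of this switch. 10 genes of the complex were followed by their symbols: the ATPases Smarca2 (BRM) and Smarca4 (BRG1), the scaffold subunits Smarcc1 (BAF155) and Smarcc2 (BAF170), the AT-rich DNA-binding subunits Arid1a and Arid1b, the actin-like subunits Actl6a (BAF53a) and Actl6b (BAF53b), and the PHD-finger subunits Dpf1 and Dpf3 (BAF45b and BAF45c). All 10 are among the 26145 genes listed, and they were measured in 35360 cells that the authors retained and named.

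The cells came from the prefrontal cortex (PFC) of male C57BL/6N mice, each library holding the pooled tissue of 2 mice, and no change of genotype is given for any of them. At P60 (8 to 10 weeks) there were 12 libraries in 6 groups of 2: cocaine or saline taken by intravenous self-administration, collected at the end of the maintenance phase, after 48 h or after 15 days of withdrawal. Saline mice went through the same food training, catheterization and lever sessions. In the paper the catheters were implanted at P60, so tissue was collected later than P60, and later still after withdrawal. P60 is kept as the name of these libraries. 3 further libraries came from untreated mice at P21 (3 weeks), for which the methods give 4 mice, so that some of these libraries may share animals and p-values over them may partly measure technical spread. Levels are given as CPM, the UMIs (unique molecular identifiers, which count captured mRNA molecules) of a gene scaled in the usual way to the total UMIs of its cell class in a library, with mitochondrial and ribosomal genes left out. Excitatory neurons numbered 14452 at P60 and 5688 at P21, and inhibitory neurons 1175 and 956.

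In the mm9 (NCBIM37) annotation that matches the authors' build, Smarca2 (ENSMUSG00000024921) lies at chr19:26679650-26852811, Smarca4 (ENSMUSG00000032187) at chr9:21420613-21508674, Smarcc1 (ENSMUSG00000032481) at chr9:110034541-110142682, Smarcc2 (ENSMUSG00000025369) at chr10:127896292-127927229, Arid1b (ENSMUSG00000069729) at chr17:4994332-5347656, Actl6a (ENSMUSG00000027671) at chr3:32607468-32625890, Actl6b (ENSMUSG00000029712) at chr5:137994745-138010810 and Dpf1 (ENSMUSG00000030584) at chr7:30088970-30102607, all on the plus strand. Arid1a (ENSMUSG00000007880) at chr4:133234923-133312684 and Dpf3 (ENSMUSG00000021221) at chr12:84314732-84451882 lie on the minus strand. Arid1b overlaps Gm15599 and Actl6a overlaps Mrpl47 on the other strand, and the 3′ end of Smarcc2 lies 687 bases from that of Myl6, so reads near these ends could be assigned to the wrong gene if strand was not used.

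The sequence of the microRNA of the switch is shown with its seed (bases 2 to 8) in capitals, as RefSeq gives it, because its matches fall on some subunits and not on others. miR-124 is named only.

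mmu-miR-9-3p: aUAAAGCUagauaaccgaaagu

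The complement of this seed, AGCTTTA, was searched on the transcribed strand of the longest annotated 3′ end of each subunit, and it is set in capitals in the 28 bases printed around each match.

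Actl6a, bases 38 to 44 of 366: cacctcaacgtctgtAGCTTTAgtacac
Smarca2, bases 299 to 305 of 1070: ttgtcatctagaactAGCTTTAgggtag
Smarcc1, bases 831 to 837 of 2396: gatagcaaagagcacAGCTTTAcaacaa
Smarcc1, bases 1659 to 1665 of 2396: ttatgtgtattttaaAGCTTTAtgtatg

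The other 7 subunits, Actl6b among them, held no match in the 3′ end searched. The same 7 letters occur in 1958 of 19915 genes (9.83%), so a match alone is common. The 3′ ends of these genes had a median length of 893 bases, and the share was not matched for length. Actl6a, which was lowest in neurons, and Smarca2, which was highest there, both held one. Levels of the microRNA were not followed, and its part in the levels of these subunits was not tested.

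The start of Actl6b is shown next, because RE1 elements are known to lie in genes that REST keeps silent outside neurons. The left and right parts of the element, CAGCACC and GGACAG, were searched on both strands of the RefSeq promoter windows (250 bases before to 50 after the start, GRCm38.p6), and they are in capitals below as they read on the plus strand, where they appear as their complements.

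Actl6b, chr5:137553564-137553593 (GRCm38.p6, plus strand): ggagCTGTCCggccgcctcGGTGCTGatcc

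The matched letters run from base 23 to base 44 after the start, with 9 bases between the parts. CAGCACC is in 7.14% and GGACAG in 22.2% of 32851 promoter windows, both at any spacing in 1.73%, and Actl6b was the only subunit with both. The order and gap found here, CAGCACCNNNNNNNNNGGACAG, is in 4 windows (0.0122%), that of Actl6b included. This gap was read from Actl6b itself, so how rare it is cannot serve as a test. The closer canonical spacing, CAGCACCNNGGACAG, is in 12 windows (0.0365%), with no subunit among these 12. Other gaps were not counted. The 250 bases before the start are printed for the actin-like pair and for Dpf1, since these genes differed most between neurons and other cells or between ages, with the GC box GGGCGG (either strand) in capitals.

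Actl6b, chr5:137553296-137553545: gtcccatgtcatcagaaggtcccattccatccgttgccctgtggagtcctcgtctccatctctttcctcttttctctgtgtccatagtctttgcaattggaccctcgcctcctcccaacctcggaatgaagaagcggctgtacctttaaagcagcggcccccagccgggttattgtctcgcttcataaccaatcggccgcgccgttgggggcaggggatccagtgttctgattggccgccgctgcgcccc
Actl6a, chr3:32708296-32708545: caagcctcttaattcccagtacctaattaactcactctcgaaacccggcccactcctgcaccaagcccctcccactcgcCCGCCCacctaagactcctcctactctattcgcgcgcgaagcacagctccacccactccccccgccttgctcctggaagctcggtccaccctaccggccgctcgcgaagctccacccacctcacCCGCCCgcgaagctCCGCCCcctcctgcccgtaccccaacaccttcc
Dpf1, chr7:29303755-29304004: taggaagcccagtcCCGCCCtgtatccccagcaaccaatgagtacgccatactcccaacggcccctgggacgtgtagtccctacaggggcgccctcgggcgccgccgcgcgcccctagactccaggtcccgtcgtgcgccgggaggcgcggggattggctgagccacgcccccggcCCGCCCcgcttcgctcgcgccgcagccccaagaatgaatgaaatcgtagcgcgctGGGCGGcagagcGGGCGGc

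The Actl6b stretch was 58% G or C with 0 GC boxes, the Actl6a stretch 64.8% with 3 and the Dpf1 stretch 71.6% with 4. A GC box is in 32.7% of promoters and in those of 8 of the 10 subunits, the others without one being Smarcc2 and Actl6b.

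The libraries differed in depth and in what stands beside the neurons. Excitatory neurons of a library held 13411867 to 27531177 UMIs at P21, with medians of 7285 to 11339 per cell, and 4903537 to 36525047 at P60, with medians of 11810 to 16454. Inhibitory neurons of a P60 library held only 150771 to 1958787 UMIs in 19 to 212 cells, so low subunits could not be measured well there. P21 library 1 stood apart. Over 11255 genes of excitatory neurons its Spearman rho with the other P21 libraries was 0.978 and 0.979, against 0.996 between libraries 2 and 3 and 0.984 to 0.995 between saline P60 libraries. Libraries 2 and 3 were the most alike pair of one group in the series. Their chi-square per degree of freedom was 3.68 over the genes of excitatory neurons, against 39.3 and 44.4 with library 1. P60 pairs gave 6.60 to 17.0. Within clusters libraries 2 and 3 were at a median of 1.39 (1.24 to 2.39). They thus differed by more than the counting noise of UMIs, which does not tell whether they share animals. Age changes that passed in excitatory neurons are therefore also given without library 1 and with libraries 2 and 3 summed as 1, as are those of the 10 subunits in clusters and in the other classes. Barcodes shared between libraries numbered at most 27 (1.09% of a library), and 492 cells (1.39%) had a cluster that did not belong to their class.

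The labels also give the nucleus accumbens as tissue. Of 5 striatal markers the summed level was 43.8 to 61.5 CPM in excitatory neurons of saline P60 libraries and 19.1 to 30.9 CPM in inhibitory ones, in which Drd2 averaged 2.33 CPM and Adora2a 2.09 CPM over the P60 libraries. The classes carried their markers. Summed neuron markers (Snap25, Syt1, Rbfox3, Stmn2, Tubb3) were at 8097 to 9596 CPM in excitatory and 6533 to 7950 CPM in inhibitory neurons at P60, the excitatory list at 1198 to 1505 against 103.1 to 310.5 CPM, and the 4 listed inhibitory markers at 0.362 to 4.85 against 3095 to 4750 CPM. RNA of neurons was also found in the other classes, in most of them more so at P21 and at 15 days of withdrawal: the neuron markers summed to 1555 to 3007 CPM in astrocytes of the 4 libraries at 15 days, against 115 to 718 CPM in those of the other P60 libraries with 10 cells. Levels of neuronal subunits in those classes are read beside these values.

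Among the subunits the actin-like pair divided the cell classes most sharply (the plot of levels by class). Actl6b, the neuronal actin-like subunit, was at 155 to 221 CPM in excitatory neurons of the 12 P60 libraries, with a median of 174.6, and between 112 and 180 CPM in inhibitory neurons, with a median of 152. Its means were 179 ± 21 CPM (SD, n = 12) and 154 ± 21.1 CPM, and the ranges overlapped although the excitatory value was the higher in 12 of 12 libraries. In the other classes it averaged 6.3 ± 6.4 CPM (endothelial cells) to 31.9 ± 24.2 CPM (oligodendrocyte precursors, n = 11), and in every library inhibitory neurons lay above the precursors.

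In some of the other classes the level of Actl6b moved with the RNA of neurons. In endothelial cells it was at 9.01 to 19.8 CPM in the 4 libraries at 15 days of withdrawal, where neuron markers summed to 748 to 1067 CPM, and at 0 to 4.80 CPM in the other 8, where they summed to 176 to 481 CPM. In microglia the same sets gave 30.8 to 75.9 CPM and 0 to 20.2 CPM of Actl6b, with neuron markers at 1687 to 3216 and 143 to 1078 CPM. In astrocytes the sets gave 43.5 to 73.5 CPM and 0 to 9.94 CPM of Actl6b, and in precursors 51.4 to 66.7 CPM and 4.61 to 28.9 CPM. In oligodendrocytes Actl6b overlapped between these sets (8.21 to 23.4 and 0 to 16.5 CPM), and in newly formed oligodendrocytes its highest value, 34.0 CPM, lay in the libraries with less RNA of neurons (6.12 to 17.3 CPM at 15 days). The part of that RNA in the level of Actl6b was not tested.

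Actl6a, its counterpart in progenitors and most other tissues, ran the other way. It lay between 10.5 and 17.5 CPM (median 14.0) in the excitatory and between 0 and 24.0 CPM (median 12.7) in the inhibitory class, against means of 35.4 ± 6.2 CPM in astrocytes, 40.7 ± 8.6 in microglia, 50.0 ± 9.8 in oligodendrocytes, 52.3 ± 16.9 in precursors, 61.3 ± 9.0 in endothelial cells and 109 ± 44.7 in newly formed oligodendrocytes. Astrocytes, the lowest of the other classes, lay above excitatory neurons in 11 of 11 libraries without overlap. Of the UMIs of the pair, Actl6b took 92.5 ± 1.3% in excitatory and 92.3 ± 4.3% in inhibitory neurons, and 9.6 ± 9.8% (endothelial cells) to 34.0 ± 20.8% (precursors) elsewhere. At 15 days of withdrawal its share was 53.7% to 71.4% in astrocytes, 51.6% to 62.5% in precursors and 40% to 76% in microglia. In the other P60 libraries it was 0% to 20%, 10% to 40% and 0% to 34.5% in these classes. UMIs of different genes can be captured with different efficiency, so such shares are compared between classes and not read as numbers of proteins.

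**Figure D1:**
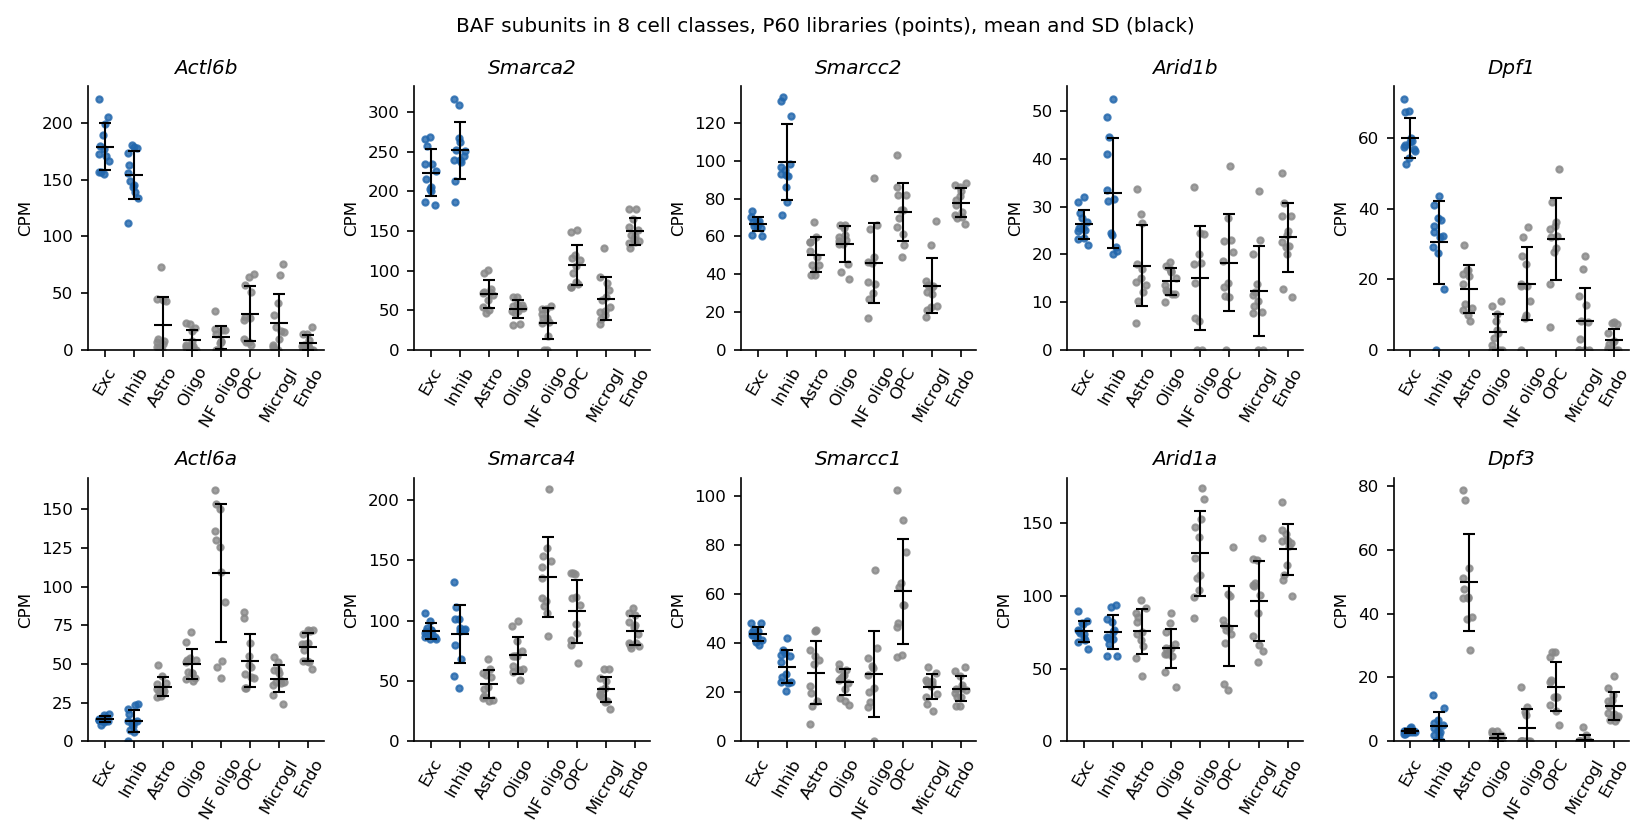
Levels of the 10 subunits (CPM, from 0) in the 8 cell classes at P60. Each point is a library with at least 10 cells of the class, neurons are blue and other classes grey, and black marks are the mean with its SD. Actl6b and Smarca2 stood highest in the 2 neuron classes, Actl6a lowest there, and Dpf3 stood highest in astrocytes.

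The ATPases divided in a softer way. Smarca2 was the higher of the pair in neurons, at 183 to 268 CPM in excitatory (median 220.8) and 187 to 317 CPM in inhibitory neurons (median 248), with means of 224 ± 29.4 and 252 ± 35.9 CPM. Excitatory neurons lay above endothelial cells, the next class at 149.5 ± 16.6 CPM, in 12 of 12 libraries, and the remaining classes averaged 33.7 to 107.2 CPM. Smarca4, the ATPase that dividing progenitors are known to need, showed no such step: it averaged 91.3 ± 6.4 CPM in excitatory neurons, 88.7 ± 24.1 CPM in the inhibitory ones and was highest in newly formed oligodendrocytes, at 135.7 ± 33.2 CPM. The share of Smarca2 in the UMIs of the ATPases was 70.8 ± 2.8% in excitatory and 74.0 ± 5.9% in inhibitory neurons, against 18.5% in newly formed oligodendrocytes, 42.1% in oligodendrocytes and 50.0% to 62.0% in precursors, microglia, astrocytes and endothelial cells.

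Of the PHD-finger subunits, Dpf1 was highest in excitatory neurons and Dpf3 in astrocytes. Dpf1 was at 52.6 to 71.1 CPM in excitatory neurons (median 58.5), above the precursors in 11 of 11 libraries, and at 0 to 43.5 CPM in inhibitory neurons (median 32.9). Its means were 60.0 ± 5.7 and 30.5 ± 11.8 CPM in the neurons and 2.9 ± 3.2 (endothelial cells) to 31.3 ± 11.6 CPM (precursors) in the other classes. Dpf3, counted with Dpf1 among the neuronal subunits, reached only 2.22 to 4.50 CPM in excitatory and 0 to 14.6 CPM in inhibitory cells. In astrocytes it was at 28.5 to 78.5 CPM (median 45.1), above every other class in 11 of 11 libraries, and in precursors at 17.1 ± 7.7 CPM. Of the UMIs of Dpf1 and Dpf3 together, Dpf3 took 5.1 ± 1.1% in excitatory neurons, 74.1 ± 8.0% in astrocytes and 82.9 ± 18.9% in endothelial cells. The endothelial share rests on 232 UMIs over 12 libraries and ran from 50% to 100%.

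The scaffold and AT-rich subunits differed less between classes. Smarcc1 averaged 43.7 ± 2.8 CPM in excitatory against 30.4 ± 6.8 CPM in inhibitory neurons, the first being higher in 12 of 12 libraries, and it was highest in precursors, at 61.0 ± 21.5 CPM. Smarcc2 averaged 66.5 ± 3.8 CPM in excitatory neurons, 99.3 ± 19.96 CPM in the inhibitory ones and 33.8 ± 14.5 (microglia) to 77.8 ± 7.6 CPM (endothelial cells) elsewhere. The share of Smarcc2 in the pair was 60.3 ± 1.9% in excitatory and 76.3 ± 5.5% in inhibitory neurons. Arid1a was at 75.6 ± 7.2 and 75.1 ± 11.5 CPM in the neurons and up to 131.9 ± 17.5 CPM in endothelial cells, while Arid1b was at 26.3 ± 3.0 and 32.8 ± 11.4 CPM in the neurons and at 12.4 to 23.6 CPM elsewhere. Arid1b took 25.8 ± 1.8% of the UMIs of the AT-rich pair in excitatory neurons, 30.1 ± 8.6% in inhibitory neurons and 10.7% to 18.9% in the other classes.

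In the order of the 8 class means, most neighbours overlapped for every subunit. The exceptions, where no library of one class reached the range of the next, were Smarca2 (excitatory neurons above endothelial cells), Actl6a (astrocytes above excitatory neurons), Actl6b (inhibitory neurons above precursors), Dpf1 (excitatory neurons above precursors) and Dpf3 (astrocytes above precursors).

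**Figure D2:**
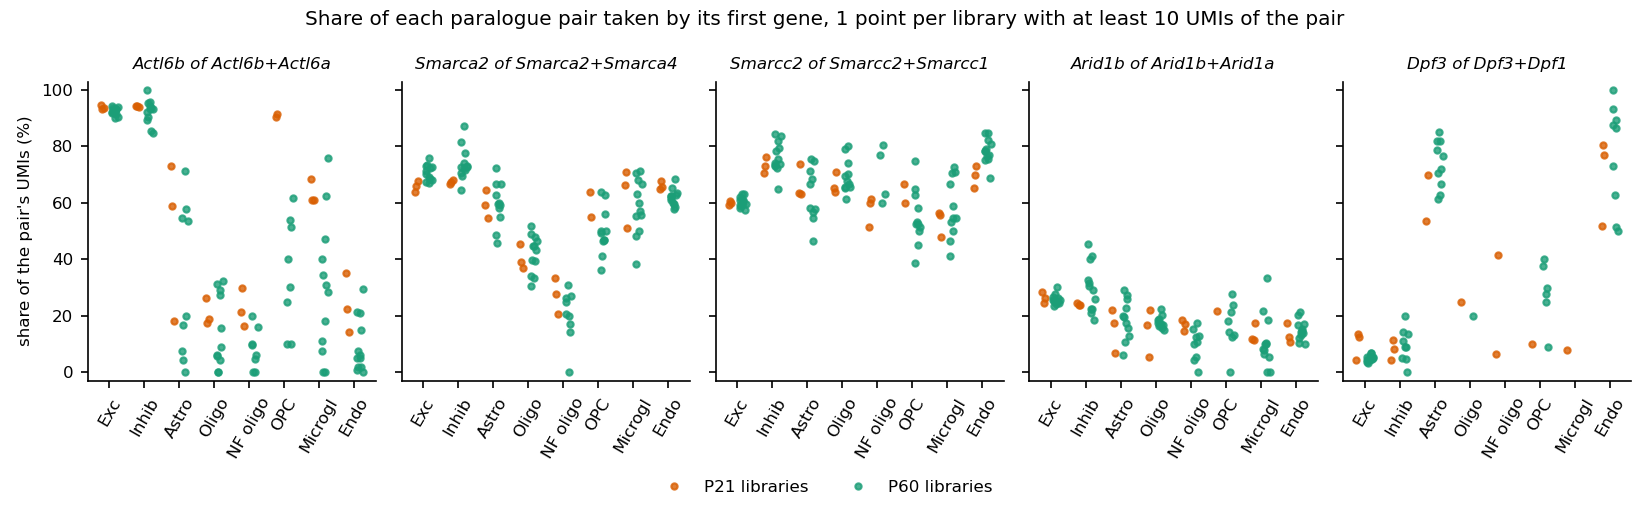
Share (%) of the first-named gene in the UMIs of 5 pairs of related subunits, per library with at least 10 UMIs of the pair, in 8 classes at P21 (orange) and P60 (green). Actl6b took over 90% of its pair on average in both neuron classes, and Dpf3 took most of its pair in astrocytes and endothelial cells.

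Classes were also set against each other in a fit with each library as a block. The authors defined the classes from the same cells, so these differences are given as a description, as log2 differences with their SE and beside the share of all genes past the same limits (an adjusted p below 0.05 and a difference above 1.5-fold). Between the mean of both neuron classes and that of the 6 others, 57.2% of 9495 genes passed (30.5% higher and 26.6% lower in neurons), and 6 of the 10 subunits did. Actl6b differed by +3.39 (SE 0.14), a 10.5-fold higher level in neurons, Dpf1 by +1.92 (SE 0.14, 3.8-fold), Smarca2 by +1.53 (SE 0.06, 2.89-fold) and Arid1b by +0.62 (SE 0.10, 1.54-fold). Actl6a was lower, at -2.10 (SE 0.08, or 0.233 times the level elsewhere), and Dpf3 at -0.67 (SE 0.29). The other 4 lay between -0.44 (Arid1a) and +0.36 (Smarcc2). The median over the subunits was 0.29, against 0.04 for all genes. Without the 4 libraries at 15 days of withdrawal, in which other classes held the most RNA of neurons, Actl6b differed by +4.40, Dpf1 by +2.56, Smarca2 by +1.73, Arid1b by +0.77 and Actl6a by -2.24, and Dpf3 no longer passed (-0.60).

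Between the neuron classes, 31.9% of genes and 2 of the 10 subunits passed. Dpf1 was higher in excitatory neurons by 1.04 (SE 0.16, 2.05-fold) and Smarcc1 by 0.62 (SE 0.11, 1.53-fold). Actl6b (+0.46), Smarca4 (+0.21) and Smarcc2 (-0.35) passed on p but differed by less than 1.5-fold, and Smarca2 differed by +0.01, or by -0.15 without TMM scaling. The median of the subunits was 0.14 and that of all genes 0.05. Without TMM scaling the share of higher genes among those past the limits moved from 49.8% to 38.6% and Smarcc1 (+0.48) no longer passed, while at P21 neither did (Dpf1 +0.54, Smarcc1 +0.39).

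In single cells these subunits were sparse. Actl6b had at least 1 UMI in 84.4% of excitatory neurons at P60. After thinning each cell to 2000 UMIs this share was 28.6% (95% Wilson interval 27.9% to 29.4%) there and 25.6% (23.2% to 28.2%) in inhibitory neurons, against 1.21% (0.896% to 1.62%) in endothelial cells, which should lack the gene. The intervals cover counting error only. Dpf1 was seen in 10.6% (10.1% to 11.1%) of thinned excitatory neurons, 5.87% of inhibitory neurons and 0.561% of endothelial cells. Actl6a was seen in 2.69% (2.44% to 2.97%) of thinned excitatory neurons and 17.9% of newly formed oligodendrocytes, and Dpf3 in 0.505% of excitatory neurons and 9.35% of astrocytes. Unthinned, Dpf1 was in 49.8%, Actl6a in 16.8% and Dpf3 in 4.07% of excitatory neurons, whose median depth per library was 11810 to 16454 UMIs, against 3966 to 5095 in endothelial cells.

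Among the clusters of neurons that the authors defined, 34 had at least 2 P60 libraries with 10 cells, 26 excitatory and 8 inhibitory. Smarca2 varied most among the well-measured subunits. It was highest in Exc_4, at 436 ± 42.8 CPM (SD, n = 12), followed by Exc_3 (392 CPM) and Exc_5 (371 CPM), and lowest in Exc_22, at 101 ± 13.8 CPM (n = 9), a 4.33-fold range, with a coefficient of variation of 37.8% over the excitatory clusters. Inhibitory clusters lay between 188 and 322 CPM. Actl6b, in contrast, was spread evenly, from 225 ± 49.4 CPM in Exc_7 (n = 9) to 116 ± 16.2 CPM in Inhib_10 (n = 2), with a coefficient of variation of 10.9% over excitatory clusters.

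Dpf1 split by class within the neurons. Its excitatory clusters lay between 43.1 and 84.4 CPM, with Exc_3 (84.4 ± 22.2 CPM), Exc_4 (82.1 CPM) and Exc_5 (78.9 CPM) the highest, the same 3 clusters that led for Smarca2. The inhibitory ones lay between 24.7 and 43.5 CPM. Smarcc2 was highest in Inhib_10 (136 ± 13.3 CPM) and lowest in Exc_17 (53.2 CPM), Smarca4 ran from 119.9 CPM in Exc_18 to 46.0 CPM in Inhib_9, Arid1b from 45.8 CPM in Inhib_3 to 12.8 CPM in Inhib_8, and Actl6a from 27.2 CPM in Inhib_10 to 8.50 CPM in Inhib_2. For Smarcc1 (57.5 CPM in Exc_3 to 28.4 CPM in Inhib_2) and Arid1a (116.7 CPM in Inhib_4 to 54.2 CPM in Exc_19) even the highest and the lowest cluster overlapped. In the order of the means all 33 pairs of neighbours overlapped for every subunit.

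**Figure D3:**
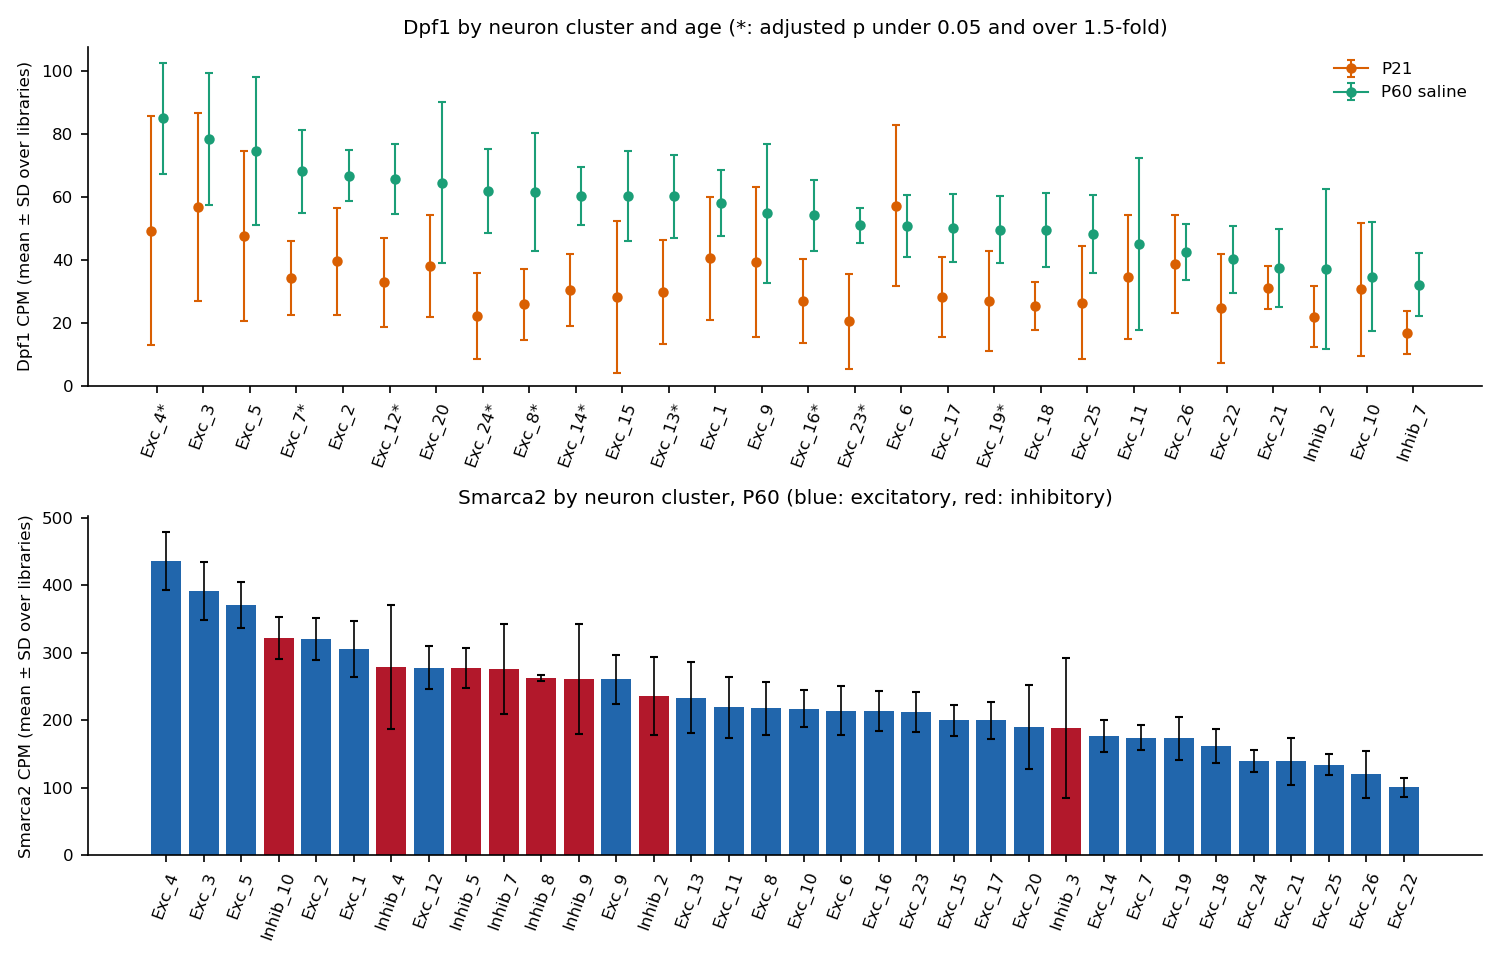
Top, Dpf1 (CPM, mean ± SD over libraries) in 28 neuron clusters at P21 and in saline P60 libraries, with asterisks for clusters past the limits. Bottom, Smarca2 (CPM, mean ± SD) in the 34 neuron clusters at P60, excitatory in blue and inhibitory in red, with Exc_4 highest at 436 CPM and Exc_22 lowest at 101 CPM.

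The genes whose cluster means most resembled those of a subunit were found by Pearson's r of log2 CPM over the 34 clusters, which share libraries and differ in depth. For Smarca2 these were Gnal (0.87), Agfg2 (0.82) and Calb1 (0.80). For Dpf1 they were H2-DMa (0.88), Nmt1 (0.88) and Sept11 (0.86), and for Actl6b Atp5b (0.76), Gpd2 (0.75) and Atp5c1 (0.72). Smarcc2 was nearest to Srrt (0.86), 6430598A04Rik (0.85) and Peg3 (0.82), and Smarcc1 to Pepd (0.75), Rgs14 (0.74) and Baiap2 (0.73). Smarca4 was nearest to Celf5 (0.80), Ikbkap (0.78) and Snph (0.78), Arid1a to Trpt1 (0.79) and Thoc1 (0.77), Actl6a to Pitpnb (0.82), Pvrl3 (0.79) and Tcof1 (0.77), and Arid1b to Bdh1 (0.66), 1110037F02Rik (0.65) and Zfp605 (0.65). Over the 26 excitatory clusters alone r was 0.34, 0.19 and 0.26 for the genes nearest to Smarcc1 and 0.25 for Bdh1, against 0.87, 0.91 and 0.84 for those nearest to Smarca2. No subunit was among these leading genes of another. Among themselves Smarca2 ran with Actl6a (0.69) and Arid1a (0.65) and Smarcc1 with Dpf1 (0.60), while Smarcc2 ran against Dpf1 (-0.51) and Smarcc1 (-0.49). Dpf3 was too low to be compared.

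The next comparison asked how the subunits differed between P21 and P60, with the 6 saline libraries standing for P60. No label gives a batch, so age and any difference in handling cannot be told apart, and in sums over a class fewer cells with a transcript and less RNA per cell cannot be told apart either. In excitatory neurons 18.1% of 13104 genes passed the limits, 8.01% with a higher and 10.1% with a lower level at P60, and 1 of the 10 subunits did, Dpf1. Beyond it, Smarcc1 and Smarca4 passed on p, as 38.8% of genes did, with falls below 1.5-fold, and the neuronal Actl6b was level, at 186.6, 170.9 and 166.1 CPM at P21 and 156 to 199 CPM in saline libraries (log2 difference +0.04, SE 0.09).

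Dpf1 rose with age in excitatory neurons, from 34.1 ± 17.0 CPM (SD, n = 3) at P21 to 56.5 ± 2.7 CPM (n = 6). The P21 libraries were at 53.8, 23.6 and 25.0 CPM, and the saline libraries were at 52.6 and 56.2 CPM at maintenance, 57.4 and 58.8 CPM after 48 h and 54.4 and 59.9 CPM after 15 days. Library 1 of P21, the one that stands apart, thus lay inside the range of P60, and the other P21 libraries lay below all P60 values. The log2 change was +0.75 (SE 0.24, 1.69-fold, adjusted p = 0.0289 by edgeR). Without P21 library 1 it was +1.27 (adjusted p = 1.28e-06), without library 2 +0.55 (adjusted p = 0.0827), without library 3 +0.57 (adjusted p = 0.0967), and with libraries 2 and 3 summed as 1 +0.57 (adjusted p = 0.0890), so that the call rests on these libraries counting separately. Leaving out saline library 2 of maintenance (adjusted p = 0.0569) or library 1 (0.0568) or 2 (0.0549) of 48 h also ended the call, with changes of +0.73 in each. Over 18 alternatives the change lay between +0.55 and +1.27, the edgeR or DESeq2 adjusted p between 1.28e-06 and 0.0967, and the call held in 11.

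The scaffold subunit Smarcc1 and the ATPase Smarca4 fell, both by less than 1.5-fold. Smarcc1 went from 51.7, 52.6 and 54.0 CPM to 40.3 to 45.9 CPM (log2 change -0.25, SE 0.08, edgeR adjusted p = 0.0227) and Smarca4 from 111.3, 105.4 and 105.7 CPM to 84.6 to 99.5 CPM (-0.19, SE 0.07, adjusted p = 0.0467). Smarcc2 was at 75.6, 81.2 and 80.5 CPM against 60.3 to 73.6 CPM (-0.20, SE 0.08, edgeR adjusted p = 0.0604). For these 3 genes P21 and saline P60 libraries did not overlap, which held for 34.5% of 12373 genes. Without P21 library 1 the edgeR adjusted p was 0.0337 for Smarcc1, 0.122 for Smarca4 and 0.0535 for Smarcc2. With P21 libraries 2 and 3 summed none of the 3 passed on p (edgeR adjusted p = 0.0730 for Smarcc1, 0.0963 for Smarca4 and 0.167 for Smarcc2).

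The remaining subunits did not pass. Smarca2 was at 196.7, 206.1 and 223.1 CPM at P21 and between 201 and 258 CPM in saline libraries, ranges that overlapped. Arid1a differed by -0.20 (SE 0.08), Arid1b by -0.17, Actl6a by +0.37 (SE 0.14), Smarca2 by +0.13 (SE 0.10) and Dpf3 by +0.13, with edgeR adjusted p-values from 0.0541 (Actl6a) to 0.661 (Dpf3). Over the subunits the median change was -0.06, and over all genes -0.01. Markers of other cells in these neurons moved between the ages as well: from P21 to saline P60, summed oligodendrocyte markers were at 178 to 332 against 46.5 to 132 CPM, those of newly formed oligodendrocytes at 61.5 to 69.8 against 38.5 to 53.3, precursors at 3.07 to 7.53 against 0.895 to 2.96, endothelial cells at 13.7 to 23.0 against 2.56 to 9.76, astrocytes at 31.7 to 52.6 against 62.6 to 143 and microglia at 6.18 to 36.3 against 7.73 to 23.8 CPM. No gene of these lists was at 0 in every library. Dpf1 itself was at 2.9 to 31.3 CPM on average in those classes, and their part in its change was not tested. The mitochondrial share of UMIs was 3.36% to 3.84% at P21 and 2.33% to 2.76% in saline P60 libraries.

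**Figure D4:**
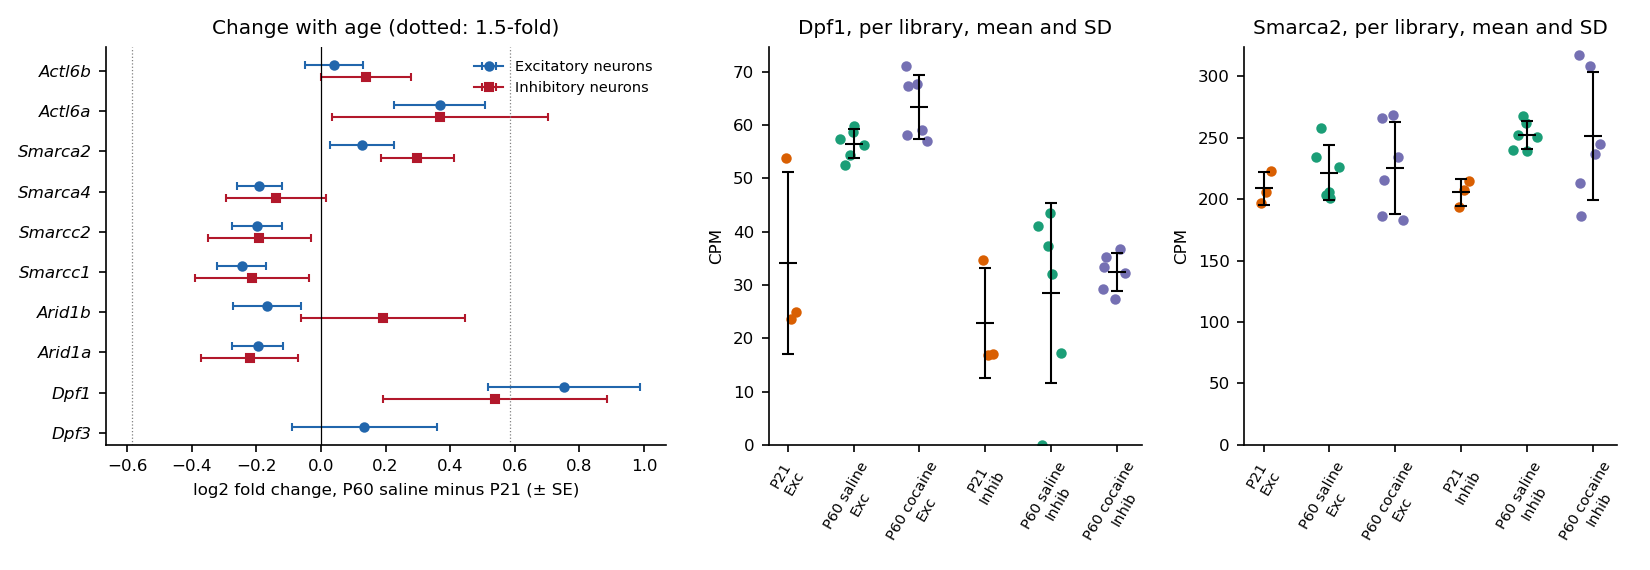
Left, log2 change from P21 to saline P60 with its SE for each subunit in excitatory (blue circles) and inhibitory neurons (red squares), with dotted lines at 1.5-fold. Middle and right, CPM of Dpf1 and Smarca2 per library with mean and SD; P21 library 1 lies with the P60 libraries for Dpf1, at 53.8 CPM in excitatory neurons.

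In inhibitory neurons, where 14.1% of 8755 genes passed, 0 of the 9 subunits tested did by edgeR and 0 by DESeq2, with 1 at an unadjusted p below 0.05 by edgeR and 19.3% of genes past the adjusted p at any fold. That one was Smarca2, at 193.5, 207.8 and 215.1 CPM at P21 and 239 to 268 CPM in saline libraries, groups that did not overlap (as for 13.7% of genes), with a log2 difference of +0.30 (SE 0.11, edgeR adjusted p = 0.0721). Dpf1 was at 34.7, 16.8 and 17.0 CPM at P21, against 0 to 43.5 CPM (+0.54, SE 0.35, adjusted p = 0.298 by edgeR), the library at 0 holding the fewest cells. P21 library 1 again stood above the others, and without it the difference was +1.02 (edgeR adjusted p = 0.0174) and passed the limits. Dpf3 was too low to be tested. In these neurons the summed markers of astrocytes were at 71.9 to 112 against 110 to 452 CPM, of oligodendrocytes at 125 to 381 against 13.7 to 329 CPM and of endothelial cells at 14.0 to 41.7 against 0 to 108 CPM. The change with age differed between the neuron classes for none of the 10 subunits by edgeR (9.01% of 12143 genes; 1 at an unadjusted p below 0.05, Smarca2, adjusted p = 0.135).

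Within pairs, the share of Smarca2 in excitatory neurons was 63.9%, 66.2% and 67.9% at P21. In saline P60 libraries it was 73.3% and 72.8% at maintenance, 73.1% and 69.1% after 48 h and 67.2% and 68.5% after 15 days. The means differed by 4.68 points (exact permutation p = 0.0357 two-sided, 0.238 adjusted over the 5 pairs in both classes). In inhibitory neurons the share of Smarca2 averaged 67.5 ± 0.6% and 73.8 ± 4.2%, a difference of 6.26 points (exact p = 0.0476, adjusted 0.238). Neither passed the correction. The smallest p that 3 against 6 libraries allow is 0.0119, at which a single pair could not have passed the correction alone. The test therefore could not decide on single pairs. The mean over 14 excitatory clusters reached that smallest p (67.3% against 71.6%, exact p = 0.0119, adjusted 0.0595). It was adjusted over the 5 pairs in excitatory neurons only, and 0.0595 is the lowest value that a pair alone could give. The share of Actl6b averaged 93.9% and 92.6% in excitatory neurons (exact p = 0.0952), and that of Dpf3 was 4.55%, 13.7% and 12.6% against 5.53 ± 1.25% (exact p = 0.0714), following the Dpf1 levels of the same libraries.

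The comparison was repeated within clusters, and whether the change of a gene differed between clusters was not tested. The names of P21 cells are those of the P60 clusters with which the authors found them best correlated. Clusters with 2 libraries of each age numbered 29 (26 excitatory, 3 inhibitory). Of all gene tests in them 10.6% passed, 4.25% with a rise, and of 229 tests of subunits 11 did, 10 of them for Dpf1. It was tested in 28 clusters, was higher at P60 in 26 and passed in Exc_4, Exc_7, Exc_8, Exc_12, Exc_13, Exc_14, Exc_16, Exc_19, Exc_23 and Exc_24, by 0.87 (Exc_19) to 1.18 (Exc_24) on the log2 scale, with edgeR adjusted p-values from 0.00189 to 0.0361.

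In Exc_24 it rose from 22.1 ± 13.7 CPM (n = 3) to 61.8 ± 13.3 CPM (n = 5), in Exc_23 from 20.5 ± 15.2 to 51.0 ± 5.5 CPM, in Exc_12 from 32.9 ± 14.1 to 65.7 ± 11.1 CPM and in Exc_4 from 49.3 ± 36.4 to 85.1 ± 17.7 CPM. In Exc_6, which gave the lowest change, it was at 57.3 ± 25.5 and 50.8 ± 9.9 CPM. The P21 libraries 1, 2 and 3 were at 91.0, 32.1 and 24.6 CPM in Exc_4, at 37.8, 15.8 and 12.7 CPM in Exc_24 and at 86.7, 41.0 and 44.1 CPM in Exc_6. Library 1 was the highest of the 3 for Dpf1 in 25 of 25 excitatory clusters with all 3 libraries, against 4 (Smarcc2) to 16 (Actl6b) of 25 for the other subunits. Without P21 library 1 Dpf1 passed in 20 of 26 clusters and was higher at P60 in all 26, with 5.67% of all gene tests passing upward, and with libraries 2 and 3 summed it passed in 7 of 27 clusters (3.34%). Where at least 30 cells were required, it passed in 6.

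The 11th call was Arid1a in Exc_24, which fell from 112.7 ± 19.3 to 64.6 ± 3.3 CPM (log2 change -0.68, SE 0.17, edgeR adjusted p = 0.00461), in the cluster with the largest share of changed genes (22.4%). It was also called without P21 library 1 (-0.83, edgeR adjusted p = 0.00190) and with libraries 2 and 3 summed (-0.60, 0.0191). No subunit other than Dpf1 and Arid1a passed in a cluster, and the median log2 differences of those other than Dpf1 lay between -0.23 (Smarcc1) and +0.28 (Actl6a, tested in 6 clusters).

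In the other classes 5 of 45 tests of subunits passed for age. Smarca2 fell in microglia by 0.88 on the log2 scale (edgeR adjusted p = 0.0393), where 42.4% of genes passed. In precursors, where 20.4% passed, Smarca2 fell by 1.18 (edgeR adjusted p = 0.0136), Actl6b fell by 1.96 (0.00880) and Actl6a rose by 1.86 (0.0439). Summed neuron markers fell alongside, from between 3457 and 4696 CPM at P21 to between 143 and 3216 CPM over the P60 libraries in microglia, and from between 5703 and 6150 CPM to between 383 and 3183 CPM in precursors, and their part in these changes was not tested. Of the 51 cells called precursors at P21, 29 carry the name of an excitatory cluster, so the values in precursors go against that label at P21. Arid1a fell by 0.67 in oligodendrocytes (edgeR adjusted p = 0.0322; 16.5% of genes). Without P21 library 1 the edgeR adjusted p was 0.0782 for Smarca2 in microglia and 0.0355 for Arid1a in oligodendrocytes, and with libraries 2 and 3 summed 0.0758 and 0.0870. Precursors could not be fitted without library 1, which left 1 P21 library, and library 3 had fewer than 10 precursors, so that nothing was summed. Astrocytes (7.63%), endothelial cells (13.4%) and newly formed oligodendrocytes (5.98%) gave no call by edgeR, with 2, 4 and 1 subunits at an unadjusted p below 0.05.

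Of the other subunits of BAF and its sister complexes, a list of 21 genes was followed, of which 20 were found by symbol. Between neurons and other classes 9 of 16 tested passed, a share near that of all genes (57.2%): Bcl11a (+3.25) and Bcl11b (+3.29), zinc-finger subunits of neurons and lymphocytes, Smarcd3 (+1.11), Bcl7a (+1.03) and Smarcd1 (+0.78) were higher in neurons, and Ss18 (-2.49), Actb (-1.08), Dpf2 (-1.04) and Brd7 (-0.66) were lower. Ss18 and Dpf2 are the partners that the neuronal complex is known to replace, and Ss18 averaged 7.98 CPM in excitatory neurons and 56.9 CPM in oligodendrocytes, against 18 and 4.71 CPM for its neuronal counterpart Ss18l1. With age in excitatory neurons, 7 of 19 passed on p and 2 also on fold, against 38.8% and 18.1% of all genes: Bcl11b fell from 61.5 ± 3.4 to 27.6 ± 3.7 CPM (log2 change -1.11, SE 0.10, edgeR adjusted p = 1.35e-05) and Bcl11a from 166 ± 6.6 to 98.4 ± 10.4 CPM (-0.72, SE 0.08, adjusted p = 5.82e-05). Without P21 library 1 Bcl11b differed by -1.14 and Bcl11a by -0.69, and with libraries 2 and 3 summed by -1.09 and -0.74, called by edgeR in each case.

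The 5 smaller changes were Actb (-0.53), Phf10 (-0.56) and Arid2 (-0.34), which were lower at P60, and Smarcb1 (+0.30) and Bcl7b (+0.22). All 5 passed on p without P21 library 1, and Arid2 (edgeR adjusted p = 0.0516) and Bcl7b (0.112) did not with libraries 2 and 3 summed. In inhibitory neurons 0 of 17 passed by edgeR, with 2 on p alone (Brd9 +0.56 and Smarcb1 +0.47) and 3 at an unadjusted p below 0.05. The change of Bcl11b differed between the neuron classes by 1.33 (edgeR adjusted p = 2.94e-05). At P60 Bcl11b averaged 29.9 ± 7.0 CPM in the excitatory class, lower than the 91.7 CPM of the inhibitory class (log2 difference -1.40).

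The last comparison was cocaine against saline within each period. No subunit passed in either neuron class at any time by edgeR, nor by DESeq2. The background was low: 0% of 13172 genes at maintenance and at 48 h and 0.714% at 15 days in excitatory neurons, and 0%, 0% and 0.779% of 8604 in inhibitory neurons. At an unadjusted p below 0.05 there were 0 of 10 subunits in excitatory neurons in each period, and 1, 0 and 0 of 9 in inhibitory neurons. The one was Dpf1 at maintenance (+1.55, SE 0.66, edgeR adjusted p = 1), where a saline library of 19 cells held none. The fitted differences in excitatory neurons lay between -0.01 and +0.23 at maintenance, -0.40 (Dpf3) and +0.20 at 48 h, and -0.20 (Arid1b) and +0.18 (Actl6b) at 15 days.

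Averaged over the periods, 1 subunit was at an unadjusted p below 0.05 in excitatory neurons, Dpf1 (+0.16, SE 0.06, edgeR adjusted p = 0.545; 0% of genes passed). Its cocaine libraries were at 71.1 and 59.0 CPM at maintenance, against 52.6 and 56.2 CPM with saline, and at 67.7 and 67.3 CPM after 48 h, against 57.4 and 58.8 CPM, so that the groups did not overlap at these times, as held for 28.9% of 12287 and 33.1% of 12220 genes. After 15 days they were at 57.0 and 58.1 CPM, against 54.4 and 59.9 CPM, and overlapped. For no subunit did the cocaine effect differ between periods by the F test in edgeR (smallest adjusted p = 0.997, 0% of genes), and 0 were at an unadjusted p below 0.05.

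In clusters none of 128 tests of subunits at maintenance (0.00647% of all tests passed), 173 at 48 h (0.00554%) and 240 at 15 days (1.22%) passed by edgeR, with 4, 6 and 11 at an unadjusted p below 0.05. Over the mean of the periods none of 120 passed (0.0383%), with 8 below 0.05. In the other classes none of 22 (0.00919% of all tests), 44 (0.0103%) and 44 (0.0956%) passed, with 2, 1 and 1 below 0.05, and none of 22 over the mean of the periods (0.0138%), with 3 below 0.05. No paralogue share passed the correction. The smallest exact permutation p was 0.0556, for Arid1b in excitatory neurons (26.8% with saline and 24.9% with cocaine, adjusted p = 0.463). The design allows 0.00926, at which a single share could not have passed the correction alone, so the test could not decide on single shares. In simulated counts where 200 genes differed by 1 log2 unit, edgeR found 81.5% of them in excitatory and 58% in inhibitory neurons at 15 days, so changes well below that size could be missed.

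**Figure D5:**
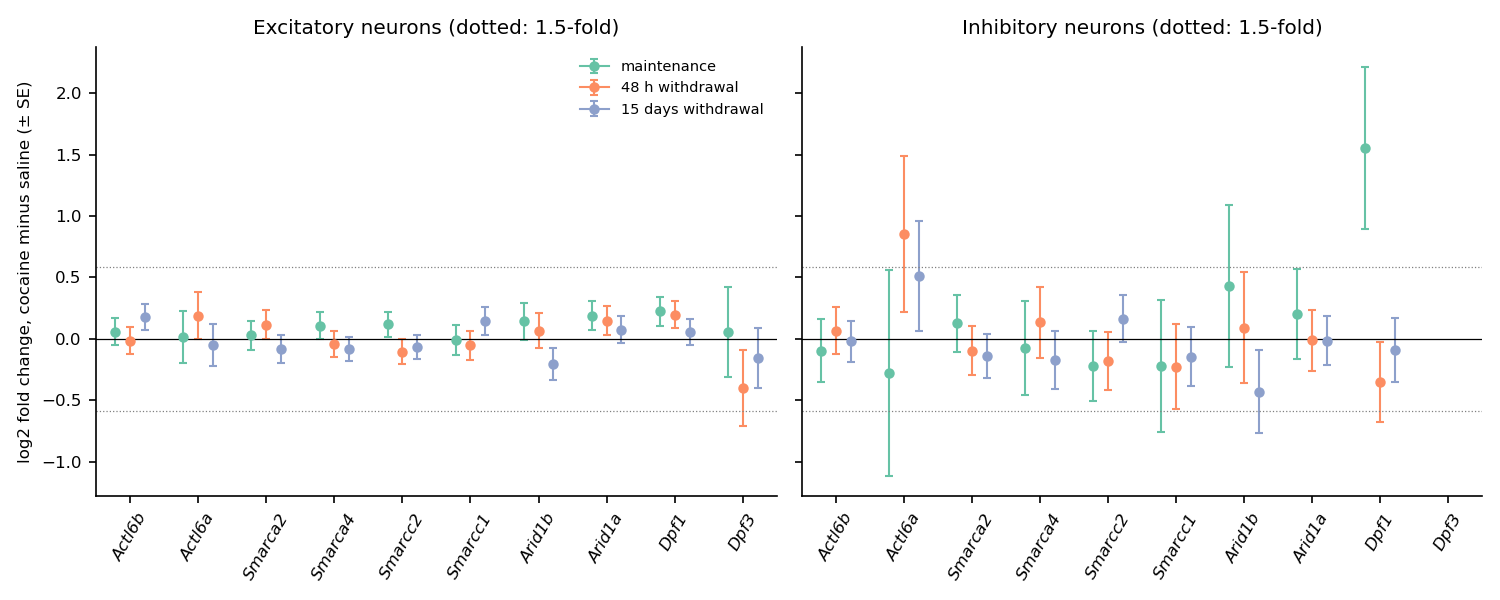
Log2 difference of cocaine from saline with its SE for each subunit in 3 periods, in excitatory and inhibitory neurons, with dotted lines at 1.5-fold. In excitatory neurons all values lie between -0.40 and +0.23, and none of the subunits passed the limits in either class.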

How the data were processed

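Single-cell RNA sequencing libraries of the PFC were made by the authors with droplet capture, aligned to mm9 and counted with Cell Ranger. What the authors deposited are UMI counts per gene and cell, as counted and not normalized, and a deposited table names the class and cluster of each retained cell, which the authors assigned with Seurat 2.1.0 after removing cells rich in mitochondrial RNA and likely doublets. Subunits and gene lists were chosen with earlier results of these data known.

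UMIs were summed per library and class or cluster with python 3.11.15 and pandas 2.3.3. A library needed 10 cells, a group 2 libraries, and genes of ribosomal proteins (143) and of the mitochondrial genome (13) were dropped. Fits were made in edgeR 4.0.16 (R 4.3.3) with its low-count filter, TMM scaling, robust dispersions and quasi-likelihood tests. A call needed a change above 1.5-fold and an adjusted p (Benjamini-Hochberg, over all genes tested) below 0.05. A period test and an interaction needed only the p. P21 was compared with saline P60 libraries, and cocaine with saline in a fit of the 12 P60 libraries with 1 mean per group. Shares of a gene in the UMIs of a pair were compared by exact two-sided permutation, over 84 splits for age and 216 regroupings within periods for cocaine. Wilson intervals are at 95%. The excitatory neurons of a library held 4903537 to 36525047 UMIs. All 10 subunits were named, and other subunits where a comparison of a whole neuron class called them. Calls of other subunits with age in clusters and in the other classes (Bcl7a in microglia) are not listed. For each subunit the 3 genes of highest Pearson's r over clusters (mean CPM of at least 10) were named. A gene that this rule picks is left out of the text. Scripts were tested on simulated data, where 80.5% of genes changed by 1 on the log2 scale were called for age in excitatory and 72.5% in inhibitory neurons.

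Alternatives were DESeq2 1.42.0 and its size factors, no TMM scaling, no low-count filter, no fold limit, other sets of libraries, an equal mix of clusters, at least 30 cells and leaving out each library. Chosen after seeing the data were class differences without the libraries at 15 days of withdrawal, P21 libraries 2 and 3 summed, and clusters and non-neuronal classes without P21 library 1. Promoters and the microRNA come from RefSeq (GRCm38.p6) and 3′ ends from GENCODE on NCBIM37.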

Additional observations from a re-analysis of the deposited data

Results flagged for a closer look

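In groups of 5 or 6 libraries, the library farthest from the rest was compared with its neighbour by Dixon's ratio for the level and the pair share of each subunit in neurons. Of 60 such tests 6 were past the 95% critical value, and chance gives about 1 in 20 for independent tests. These tests are not independent, since a pair share is made from the same UMIs as the levels. In excitatory neurons with cocaine, Smarca4 was at 106.4 CPM in maintenance library 1 and at 84.8 to 91.2 CPM in the others. In inhibitory neurons with saline, Smarca4 was at 54.1 CPM in library 1 of 48 h, below the others at 91.3 to 111.4 CPM. The remaining 4 concern inhibitory neurons of saline maintenance library 2, in which Actl6a was at 24.0 CPM (others 6.37 to 13.0), Dpf3 at 10.3 CPM (others 0 to 3.67), the share of Actl6b at 84.8% (others 92.3% to 95.8%) and the share of Dpf3 at 37.5% (others 4.65% to 8.96%). The inhibitory neurons of a saline library numbered 19 to 203, so these values rest on few UMIs.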

How the results depend on the processing

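No paired analysis was possible because the labels give adult libraries no replicate numbers and P21 and P60 libraries come from different mice. For age in excitatory neurons, 1 subunit was called, against 0 without the filter on low counts (Dpf1 +0.77, adjusted p = 0.0549 by edgeR), 0 with P21 libraries 2 and 3 summed, 3 without the fold limit and 0 to 1 when a library was left out. In inhibitory neurons leaving out a library gave 0 to 1. In clusters 11 calls became 7 with at least 30 cells and 23 without P21 library 1. In the other classes 5 age calls became 3 with P21 libraries 2 and 3 summed and 1 without P21 library 1, where precursors could not be fitted. Between excitatory and inhibitory neurons 2 calls became 0 at P21, 1 without TMM and 1 with saline libraries. Removing TMM moved the median of all genes from 0.05 to -0.09 in that contrast and from 0.04 to 0.22 between neurons and other classes.

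The direction turned for Actl6b with age in excitatory neurons at an equal mix of clusters (-0.023) and for Smarca4 between neurons and other classes at P21 (-0.040). Between excitatory and inhibitory neurons it turned for Smarca2 (-0.015 at P21, -0.15 without TMM, -0.083 with saline libraries), Arid1a (-0.12 at P21, -0.0089 without TMM), Arid1b (+0.071 at P21) and Dpf3 (+0.85 at P21, +0.11 with saline libraries). The share of Arid1b with age differed by -0.60 points with all 12 P60 libraries. Leaving out a library turned Dpf3 (-0.029 to 0.23) and the shares of Arid1b (-0.548 to 1.31 points) with age in excitatory neurons, and Arid1b (-0.072 to 0.34) and the shares of Smarcc2 (-0.25 to 3.50) and Dpf3 (-1.09 to 7.12) in inhibitory neurons. For cocaine it turned the shares of Actl6b (-0.640 to 0.430) and Smarca2 (-0.644 to 1.26) in excitatory neurons and of Actl6b (-3.15 to 1.69), Arid1b (-4.20 to 2.53), Dpf3 (-7.23 to 7.90) and Smarca2 (-3.26 to 4.29) in inhibitory neurons. None of these results passed a threshold, and the cause was not tested. Of the remaining values for single subunits and pairs, 577 kept direction and call, 15 lost a call and 4 gained one, and the clusters in which Dpf1 rose with age went from 10 to 6 with at least 30 cells and to 20 without P21 library 1. Inhibitory neurons limit the depth, with 150771 UMIs in the smallest P60 library.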

Other observations

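Within P60, the libraries at 15 days of withdrawal differed from the others in 2 subunits whatever the treatment, a comparison chosen after the values were seen and not tested. In excitatory neurons Actl6b was at 189.5 to 221.3 CPM in these 4 libraries (203.8 ± 13.3, SD) and at 154.9 to 179.9 CPM in the other 8 (166.8 ± 9.8), without overlap, and it was higher on average in 25 of 26 clusters. In inhibitory neurons the ranges were 173.6 to 180.5 and 112.2 to 163.2 CPM. The ATPase gene Smarca2 was lower in excitatory neurons, at 183.1 to 203.5 CPM against 206.2 to 268.4 CPM, and on average in 23 of 26 clusters, but overlapped in inhibitory neurons (213 to 268 against 187 to 317 CPM). Within clusters the groups did not overlap in 3 of 26 for Actl6b and 0 of 26 for Smarca2, and Arid1a, whose class sums overlapped, was higher on average in 22 of 26. In class sums, groups without overlap were found for 4.46% of 12300 genes in excitatory and 2.09% of 12695 genes in inhibitory neurons. The clusters are parts of the same libraries, so their counts give no separate evidence, and no share of all genes was taken for them. Time after the last session, age and the handling of the libraries at 15 days cannot be told apart.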
